A study of Mus musculus with 18 samples.

Results

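The 4 cytokine genes Il10, Il19, Il20 and Il24 lie side by side on mouse chromosome 1, and the accessible chromatin around them was followed through 6 conditions in bone marrow-derived macrophages (BMDMs) from Il10-/- mice. A peak was taken as part of this cluster when it overlapped the body of 1 of the 4 genes extended by 25 kb on both sides in the mm9 genome build. The rule itself uses positions and no measured value, but it was chosen with earlier results of these data known. The rule found 31 of the 194284 peaks in the union set. The cells came from 3 male Il10-/- mice of 12 weeks on a C57BL/6J background. Each of the 6 conditions had 3 libraries, taken as 1 per mouse by their replicate numbers. All 6 conditions share the Il10-/- genotype, so no wild-type cells stand beside them, and the labels do not describe the disrupted allele. Unstimulated BMDMs received neither LPS nor a treatment. The treatments were 500 nM (+)-JQ1, a small molecule that keeps BET proteins off acetylated histones, or 10 ng/mL recombinant IL-10, each for 12 hours, and both were given alone or before LPS. LPS, a bacterial cell wall component, was added at 50 ng/mL for 4 hours, and control wells received PBS instead. Accessibility was measured by ATAC-seq, in which a transposase cuts open DNA and the reads counted in a peak follow its openness.

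IL-10 is the main cytokine by which macrophages limit their own inflammatory response. It binds a receptor made of IL10RA and IL10RB, which acts through the kinases JAK1 and TYK2 on the transcription factor STAT3. Macrophages switch on Il10 after sensing bacterial products, and regulatory elements are known on both sides of the gene. IL-19, IL-20 and IL-24 are its relatives of the IL-20 subfamily, which share receptors containing IL20RB and act mostly on epithelial cells. In these BMDMs the Il10 gene is disrupted, so that recombinant IL-10 was the source of IL-10 in the conditions that contain it.

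Facts of the whole series bear on these values. The total count in peaks was 12020526 to 25908198 per library, and the scaling factors by TMM were 1.04 to 1.24 in unstimulated cells against 0.896 to 1.05 in the other libraries. Levels are given as CPM, the counts in a peak scaled by TMM and by the library's total count in peaks, and levels of peaks of different length as CPM per kb. Among markers fixed for the cell type, 7 of 7 macrophage genes had a peak at their start, while 0 of 3 T cell genes and 2 of 3 B cell genes had one, as did 3 of 3 neutrophil and 2 of 2 epithelial genes. The counts describe a mixture of cells, so more open cells and more openness per cell cannot be told apart.

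The 31 peaks were numbered along the chromosome and are unevenly shared between the genes. The Il10 window held 22 of them (peaks 10 to 31), the Il19 window 6 (peaks 4 to 9), the Il20 window 4 and the Il24 window 3 (peaks 1 to 3). The 4 peaks of the Il20 window (peaks 4 to 7) also lie in the Il19 window. Of the Il10 peaks, 9 were upstream of the gene, 3 over its body and 10 downstream of it. The authors had classed 4 of the 31 as promoter and 27 as distal, and 2 of the 4 promoter peaks (peaks 1 and 3) belong to starts of Faim3, a gene for an IgM Fc receptor that reaches into the Il24 window. No peak lay within 1000 bp before to 100 bp after an annotated start of Il20 or Il24. Il19 had such a peak (peak 8, chr1:132836602-132837389), and so did Il10 (peak 18, chr1:132915317-132916027).

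The start of the disrupted gene itself was not under a peak. Il10 (ENSMUSG00000016529.5) runs on the plus strand at chr1:132916422-132921551. Peak 18 ended 395 bp before this start and the next peak began 1209 bp behind it, which left 1604 bp free of peaks. Exon 1 (232 bp) and exon 2 (60 bp) fell in this gap. Exons 3, 4 and 5 were under peaks 19, 20 and 21, and each of these 3 peaks held at least 14 counts in every one of the 18 libraries. No wild-type library was analysed here, so the gap cannot be compared with an intact gene, and accessibility of the deposited peaks does not check the genotype.

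Peaks differed widely in openness. The mean level over all 18 libraries was 1.04 to 17.8 CPM per kb, and the 31 peaks stood between percentiles 8.29 and 95.8 of all peaks, with a median of 64. The most open of the 31 was peak 26 (17.8 CPM per kb), 18.5 kb behind the Il10 start, followed by peak 19 over exon 3 (15.3 CPM per kb), peak 22 just behind the gene (11.2 CPM per kb) and peak 18 before its start (7.81 CPM per kb). Peak 8 at the Il19 start was 30th of the 31 with 1.09 CPM per kb. Counts were therefore low in part of the cluster, and 10 of the 31 peaks fell under 10 counts in at least 1 library.

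**Figure D1:**
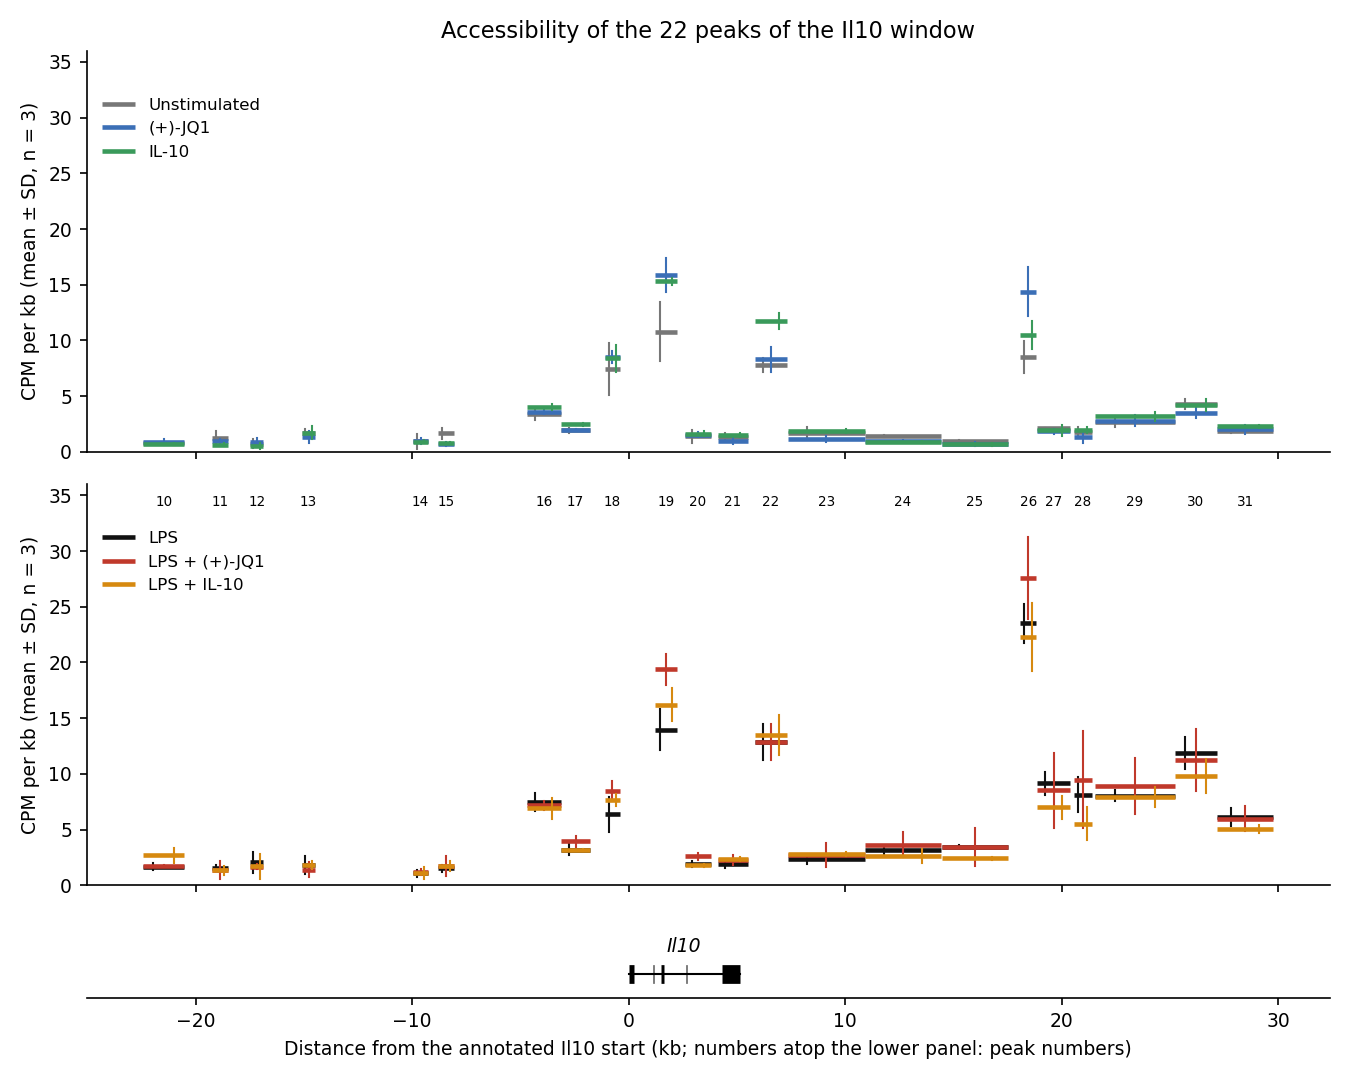
Mean accessibility (CPM per kb, horizontal bars as wide as each peak, vertical lines ± SD of 3 libraries) of the 22 peaks of the Il10 window against the distance from the annotated Il10 start in kb, without LPS (upper panel) and with LPS (lower panel), over a drawing of the 5 Il10 exons. Peaks 24 to 31 are higher in the lower panel, while the means of peak 18 before the start lie between 6.38 and 8.52 CPM per kb in all 6 conditions.

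The sequences of 4 peaks are shown because the results below turn on them. Each is the central 300 bases on the plus strand of the mm9 genome, and capitals mark matches to a fixed set of motifs. Peak 27 had the smallest adjusted p after LPS, and the other 3 were chosen after their values were seen.
Peak 27 (chr1:132935900-132936199): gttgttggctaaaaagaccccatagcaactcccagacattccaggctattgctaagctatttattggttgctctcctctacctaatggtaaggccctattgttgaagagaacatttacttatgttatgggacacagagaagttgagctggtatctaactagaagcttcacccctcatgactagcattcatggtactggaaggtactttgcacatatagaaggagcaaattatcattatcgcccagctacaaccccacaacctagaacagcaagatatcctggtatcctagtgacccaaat
Peak 26 (chr1:132934737-132935036): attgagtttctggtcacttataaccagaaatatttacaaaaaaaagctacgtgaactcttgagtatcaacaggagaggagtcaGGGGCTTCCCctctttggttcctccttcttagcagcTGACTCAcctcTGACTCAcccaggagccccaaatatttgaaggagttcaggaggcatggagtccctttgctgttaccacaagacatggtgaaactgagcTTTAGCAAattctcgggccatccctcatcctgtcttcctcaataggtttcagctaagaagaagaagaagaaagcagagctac
Peak 8 (chr1:132836846-132837145): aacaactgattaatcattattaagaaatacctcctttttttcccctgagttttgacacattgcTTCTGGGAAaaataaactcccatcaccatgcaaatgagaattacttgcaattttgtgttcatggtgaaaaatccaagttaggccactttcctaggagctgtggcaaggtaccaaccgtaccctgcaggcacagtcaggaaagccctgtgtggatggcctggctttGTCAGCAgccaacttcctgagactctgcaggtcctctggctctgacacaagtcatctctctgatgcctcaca
Peak 10 (chr1:132894794-132895093): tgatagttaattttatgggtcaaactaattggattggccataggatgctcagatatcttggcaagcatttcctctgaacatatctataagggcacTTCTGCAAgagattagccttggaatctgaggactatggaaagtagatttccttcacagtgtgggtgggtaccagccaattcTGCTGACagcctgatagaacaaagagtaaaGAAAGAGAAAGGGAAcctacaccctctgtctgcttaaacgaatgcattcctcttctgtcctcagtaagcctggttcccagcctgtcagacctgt

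The motifs searched on both strands were AP-1 (TGANTCA), CRE (TGACGTCA), STAT (TTCNNNGAA), IRF (GAAANNGAA), kappaB, PU.1 (GAGGAAGT), C/EBP (TTGCNNAA) and a Maf half-site (TGCTGAC). The centre of peak 26 held 2 AP-1 matches, 1 kappaB match and 1 C/EBP match. That of peak 10 held 2 overlapping IRF matches with 1 C/EBP and 1 Maf half-site match, and that of peak 8 a STAT match and a Maf half-site match. The centre of peak 27 held no match. Across the 31 centres, 5 held AP-1 (16.1%, against 12.1% of all 194284 centres), 5 C/EBP (16.1% against 12.5%), 3 IRF (9.68% against 10.1%), 2 STAT (6.45% against 8.74%), 2 kappaB (6.45% against 5.98%), 2 the Maf half-site (6.45% against 5.66%), 1 PU.1 (3.23% against 4.58%) and 0 CRE (against 0.338%). The median GC content of the centres was 47% in the 31 peaks and in all peaks.

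LPS opened peaks of the Il10 locus, and the largest rises lay in the stretch behind the gene. Peaks were compared by the quasi-likelihood test of edgeR, its p-values were adjusted by Benjamini-Hochberg over all 194230 tested peaks, and a differentially accessible region (DAR) had an adjusted p under 0.05 and a |log2 fold-change| above 0.5. All 31 peaks passed the filter on low counts. After LPS, 15 of the 31 were DARs with higher accessibility and 0 with lower, while 11.7% of all tested peaks were higher and 10.2% lower. The log2 fold-change was above 0 in 28 of the 31 peaks, and its median was 0.72 over the 31 peaks and -0.03 over all tested peaks. Downstream of Il10, 9 of 10 peaks rose, with a median of 1.52. Upstream of it 4 of 9 rose, and over the gene body 0 of 3. These stretches were chosen after the values were seen, and a difference between them was not tested. Upstream peaks 11 to 15 fell to between 3 and 8 counts in their lowest libraries, while the downstream peaks held at least 11 in every library.

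The downstream DARs showed the separation in every library. Peak 27 (chr1:132935302-132936796, 19.6 kb behind the Il10 start) held 3.15, 3.08 and 3.23 CPM in unstimulated cells of mice 1 to 3 and 14.8, 14.3 and 11.9 CPM after LPS. Its log2 fold-change was 2.12 ± 0.19 (SE, adjusted p = 2.9e-17, edgeR). Peak 28 (20.98 kb) held 1.07, 1.59 and 1.75 CPM before and 6.66, 8.04 and 5.43 CPM after LPS, and its log2 fold-change of 2.17 ± 0.25 (adjusted p = 4.4e-12) was the highest of the 31 peaks. In both peaks each LPS library was above each unstimulated library. Peak 26, the most open of the cluster, held 5.02, 6.81 and 6.96 CPM in unstimulated cells and 18.8, 16.5 and 16.5 CPM with LPS (log2 fold-change 1.46 ± 0.15).

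Further from the gene the rise continued without overlap between the groups. Peak 29 (23.4 kb) was 7.96, 10.6 and 11.6 CPM before and 29.9, 31.7 and 28.1 CPM after LPS. Peak 30 (26.2 kb) was 7.23, 8.63 and 8.88 CPM before and 25.5, 23.2 and 19.9 CPM after, and peak 31 (28.5 kb) 5.62, 4.45 and 4.77 CPM before and 16.1, 17.9 and 13.7 CPM after. Log2 fold-changes of these 3 peaks were 1.57, 1.47 and 1.69, and every LPS library was above every unstimulated one. Closer to the gene, peak 25 (16.0 kb) went from 3.21, 3.08 and 2.52 CPM to 11, 10.3 and 10.6 CPM (1.86), and peak 24 (12.7 kb) from 5.55, 4.95 and 4.93 CPM to 12.3, 10.4 and 10.6 CPM (1.11). The groups were apart here too. Peak 22 (6.57 kb), directly behind the last exon, was already open and went from 11.1, 10.6 and 12.4 CPM to 21.5, 17.2 and 17.7 CPM (0.73 ± 0.14, adjusted p = 3.3e-05). The exception among the 10 was peak 23, whose log2 fold-change of 0.47 had an adjusted p of 0.047 but did not reach the size required of a DAR. Its groups overlapped, with 8.10 CPM in the unstimulated library of mouse 1 and 6.87 CPM in the LPS library of mouse 3.

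The accessible stretch does not end at the edge of the Il10 window. Mapkapk2, which encodes the p38-activated kinase MK2, lies on the minus strand and ends 28.7 kb behind the last Il10 base. The 19 peaks from the edge of the window to just beyond the Mapkapk2 start lie 31.6 to 80.2 kb from the Il10 start. Of them, 17 were higher after LPS and 0 lower, beside 11.7% and 10.2% of all tested peaks. Their median log2 fold-change was 0.98. The nearest of them, outside the 25 kb limit, had a log2 fold-change of 1.27 ± 0.17. The 10 downstream peaks thus lie between 2 genes, and the counts do not assign them to either. On the other side, 1 of the 5 peaks between the Il19 and Il10 windows was higher after LPS (0.65 ± 0.17), and the 1 peak tested below the Il24 window had a log2 fold-change of 0.16 ± 0.37.

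Upstream, peak 16 (chr1:132911720-132913275, centred at -3.92 kb from the Il10 start) held 4.48, 5.17 and 6.25 CPM in unstimulated cells and 10.2, 12.3 and 12.4 CPM after LPS (log2 fold-change 1.12 ± 0.16, adjusted p = 1.2e-08). Its neighbour peak 17 (-2.45 kb) rose by less (0.72 ± 0.21). Peak 10 (-21.5 kb) held 1.61, 1.48 and 1.53 CPM before and 3.26, 2.50 and 3.64 CPM after LPS (1.02 ± 0.26). Peak 12 (-17.2 kb) rose by 1.48 ± 0.46 on low counts of 3 to 42 per library.

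The peak next to the Il10 start did not pass the test. Peak 18 held 3.48, 5.66 and 6.68 CPM in unstimulated cells and 3.40, 5.64 and 4.54 CPM after LPS, and the ranges of the groups overlapped. Its log2 fold-change was -0.24 (95% interval -0.62 to 0.14, adjusted p = 0.39). Peak 19 over exon 3 held 7.96, 12.8 and 12.7 CPM before and 13.8, 16.5 and 12.8 CPM after (0.36, 95% interval 0.07 to 0.66, adjusted p = 0.057). Peaks 20 and 21 over exons 4 and 5 had log2 fold-changes of 0.48 ± 0.27 and 0.50 ± 0.26 with adjusted p-values of 0.20 and 0.15.

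In the summed counts of the 22 Il10 peaks, the 6 conditions fell into 2 ranges. The mean was 93.2 ± 5.41 CPM in unstimulated cells, 97.5 ± 1.08 with (+)-JQ1 and 106.7 ± 4.24 with IL-10 (SD, n = 3). It was 203.2 ± 12.5 CPM with LPS, 219.4 ± 45.2 with LPS + (+)-JQ1 and 191.6 ± 20.9 with LPS + IL-10. Within the first range, unstimulated and (+)-JQ1 libraries overlapped, and the IL-10 libraries (101.8 to 109.3 CPM) were above both. Within the second, all 3 conditions overlapped. The wide SD of LPS + (+)-JQ1 comes from mouse 1, whose library summed to 271.4 CPM and had 13619436 counts in peaks, the fewest of the 9 libraries with LPS.

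Upstream, gene body and downstream peaks of Il10 differed in this order. Upstream, the sum was 18.98 ± 0.98, 19.19 ± 0.46 and 19.83 ± 1.52 CPM in unstimulated, (+)-JQ1 and IL-10 cells and 28.8 ± 1.97, 30.6 ± 2.19 and 30.6 ± 4.23 CPM in the same conditions with LPS, and ranges overlapped within each set of 3. The downstream sum was 155.1 ± 12.7 CPM with LPS, 162.7 ± 41.9 with LPS + (+)-JQ1 and 138.9 ± 16.6 with LPS + IL-10, again with overlap. Over the gene body the order was another one. There LPS (19.3 ± 1.36 CPM), (+)-JQ1 (19.5 ± 1.24) and IL-10 (19.8 ± 0.51) alone did not differ beyond their spread, unstimulated cells were below them (14.6 ± 2.74) and LPS + (+)-JQ1 was above all others (26.2 ± 1.85, with its lowest library at 24.04 against 22.96 for the highest of LPS + IL-10).

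**Figure D2:**
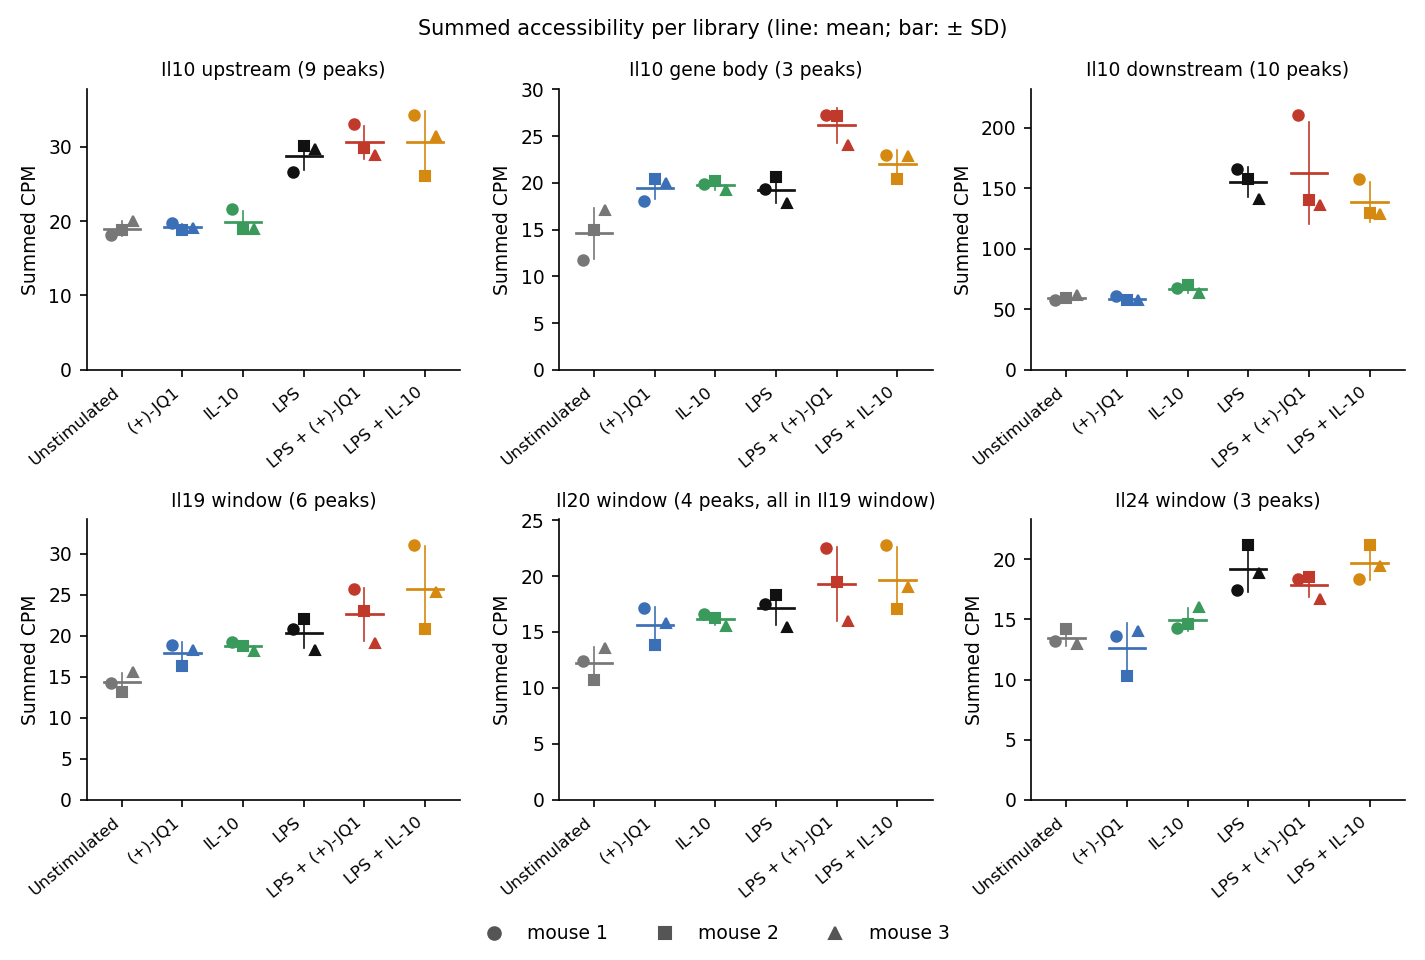
Summed accessibility (CPM) of each library in the upstream, gene body and downstream peaks of Il10 and in the windows of Il19, Il20 and Il24, by condition, with the mean and SD of 3 mice. Downstream of Il10, libraries without LPS sit between 57.6 and 70.2 CPM and those with LPS between 129.1 and 211.0 CPM.

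The windows of Il19, Il20 and Il24 held fewer peaks, and whether their response differed from that of the Il10 window was not tested. At Il19 (ENSMUSG00000016524.6, chr1:132829235-132836650, minus strand), 1 of 6 peaks rose with LPS, beside 11.7% of all tested peaks. This was peak 9, at -12.6 kb from the gene's start, with 0.602, 1.87 and 1.37 CPM before and 2.39, 3.20 and 1.85 CPM after LPS (0.93 ± 0.29, adjusted p = 0.011). The unstimulated library of mouse 2 was just above the LPS library of mouse 3, so the groups overlapped. Peak 8 at the Il19 start held 1.14, 0.604 and 0.603 CPM before and 0.919, 0.499 and 0.956 CPM after (0.04, 95% interval -0.83 to 0.90). At Il20 (ENSMUSG00000026416.5, chr1:132803769-132807873), 0 of the 4 peaks were DARs, and the most open of them, peak 4, had a log2 fold-change of 0.45 ± 0.15 (adjusted p = 0.016), under the size required.

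The sum over the 6 Il19 peaks was 14.3 ± 1.19 CPM in unstimulated cells, 20.4 ± 1.91 with LPS, 22.6 ± 3.26 with LPS + (+)-JQ1 and 25.7 ± 5.16 with LPS + IL-10. Most of it came from the 4 peaks shared with Il20, which summed to 12.3 ± 1.45, 17.1 ± 1.47, 19.3 ± 3.28 and 19.7 ± 2.90 CPM in the same conditions. With (+)-JQ1 or IL-10 alone, the Il19 sum was 17.8 ± 1.35 and 18.7 ± 0.57 CPM. The ranges of the 3 conditions with LPS overlapped in both windows.

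At Il24 (ENSMUSG00000026420.9, chr1:132778651-132784031), 1 of 3 peaks rose with LPS, beside 11.7% of all tested peaks. Peak 3, a broad peak of 4000 bp over an annotated start of Faim3, held 10.4, 11.5 and 11.1 CPM before and 15.8, 18.6 and 15.8 CPM after LPS (0.60 ± 0.14, adjusted p = 0.00059). It lies 10.8 kb from the Il24 start, and the counts cannot tell Faim3 from Il24 as the gene it serves. Peaks 1 and 2 had log2 fold-changes of -0.25 ± 0.37 and 0.19 ± 0.35. The 3 peaks summed to 13.5 ± 0.65 CPM in unstimulated cells, 12.7 ± 2.05 with (+)-JQ1 and 15.0 ± 0.96 with IL-10, and to 19.2 ± 1.90, 17.9 ± 1.01 and 19.7 ± 1.42 CPM in the same order with LPS. Every library with LPS was above every library without.

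**Figure D3:**
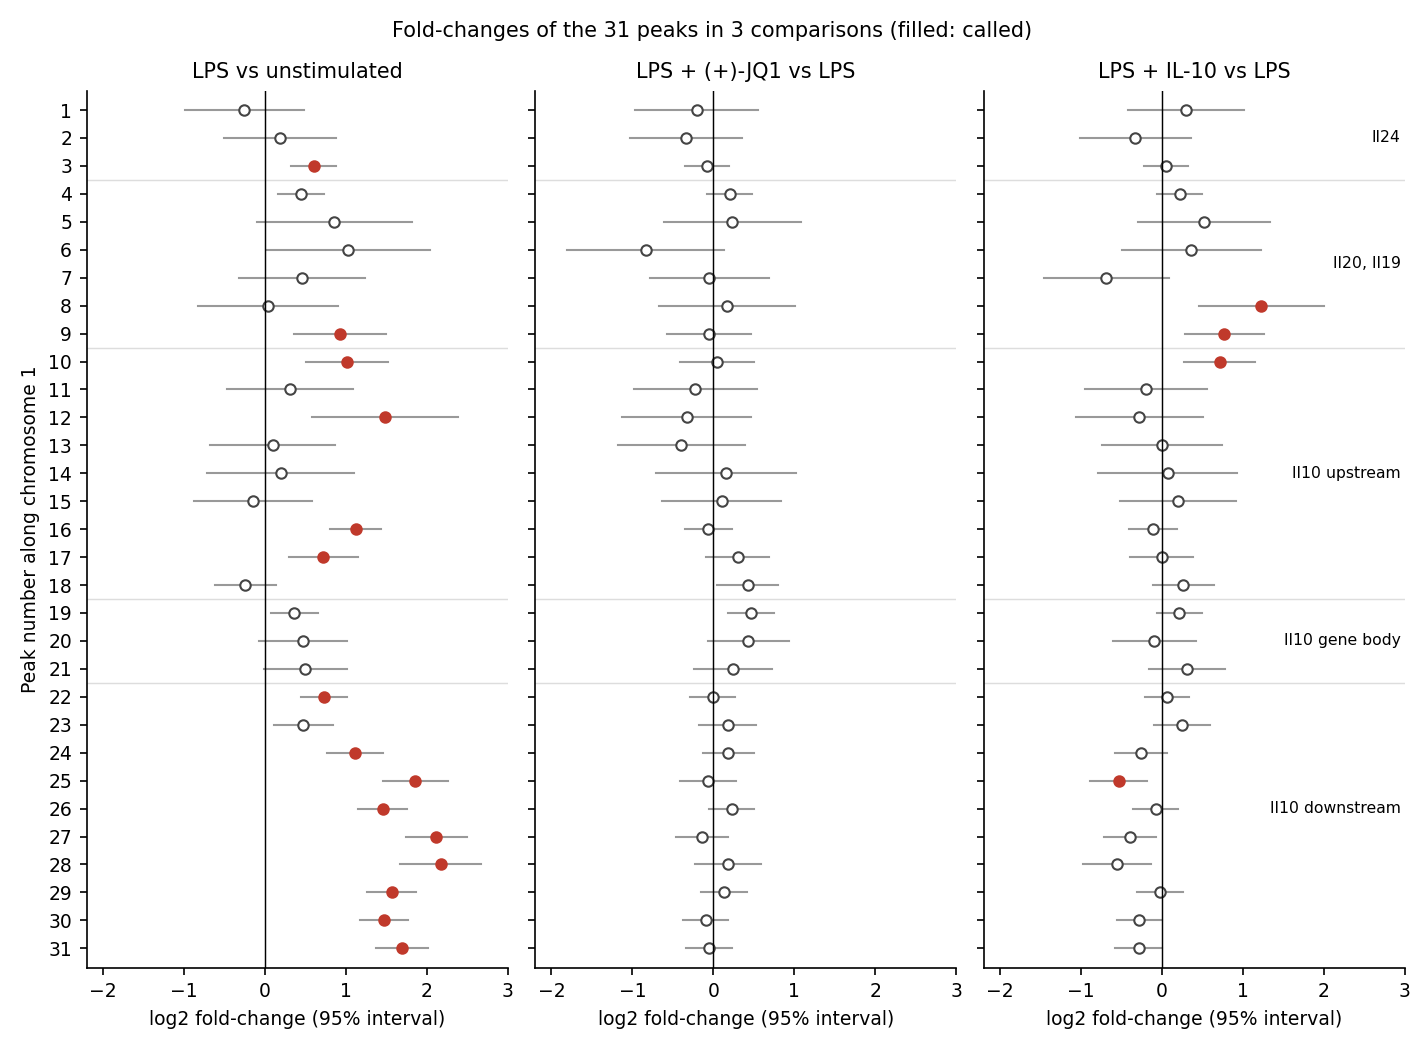
Log2 fold-changes of the 31 peaks with 95% intervals (points and lines, one row per peak from Il24 at the top to the Il10 downstream stretch) for LPS against unstimulated, LPS + (+)-JQ1 against LPS and LPS + IL-10 against LPS. Filled points are DARs, of which there are 15, 0 and 4.

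Of the 15 LPS DARs, 10 (peaks 10, 16 and 24 to 31) were also called under all 12 alternative ways of processing. Peaks 3 and 22 lost the call with total-count scaling and with loess offsets, and peaks 9 and 17 with total-count scaling. Peaks 9 and 12 lost it without the libraries of mouse 1, and peaks 12 and 17 without those of mouse 2. Libraries of mouse 2 ran in different lanes with and without LPS, and with the sequencing lane as a covariate 16 peaks were called, among them all 15. The macrophage marker starts summed to 210.2 to 227.4 CPM with LPS alone and 145.3 to 200.2 CPM in unstimulated libraries. In the same 2 conditions, the 2 B cell marker starts summed to 6.34 to 7.90 CPM and 4.22 to 4.78 CPM. Their part in the LPS calls was not tested.

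Next, cells pretreated with (+)-JQ1 were compared with cells given LPS alone, to see whether BET inhibition limits this opening. Among the 31 peaks, 0 were DARs in either direction by edgeR, while 1.74% of all tested peaks were higher and 3.49% lower. At an unadjusted p under 0.05 there were 2 peaks, and DESeq2 also called 0. In the 10 downstream peaks the log2 fold-changes were -0.14 to 0.22 with a median of 0.06, and their 95% intervals spanned -0.46 to 0.58 at the widest. Peak 27 held 18.5, 10.8 and 9.0 CPM with LPS + (+)-JQ1, against 14.8, 14.3 and 11.9 CPM with LPS (-0.14, 95% interval -0.46 to 0.18). Peak 29 held 43.7, 28.1 and 27.1 CPM against 29.9, 31.7 and 28.1 CPM (0.13, 95% interval -0.15 to 0.41). In both peaks the library of mouse 1 was the highest of the LPS + (+)-JQ1 group, and without replicate 1 the count of DARs was again 0.

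Around the Il10 start and over its exons, no peak reached the criteria of a DAR with LPS + (+)-JQ1. Peak 19 over exon 3 held 20.4, 21.1 and 18.4 CPM with LPS + (+)-JQ1 and 13.8, 16.5 and 12.8 CPM with LPS, without overlap. Its log2 fold-change of 0.47 (95% interval 0.19 to 0.75) had an adjusted p of 0.029 and did not reach the size required of a DAR. The other gene body peaks, 20 and 21, had log2 fold-changes of 0.43 (95% interval -0.07 to 0.93) and 0.24 (95% interval -0.24 to 0.72). Peak 18, before the start, held 5.37, 6.6 and 6.09 CPM against 3.40, 5.64 and 4.54 CPM (0.42, 95% interval 0.05 to 0.80, adjusted p = 0.20). Downstream, peak 26 held 21.3, 22.3 and 17.2 CPM against 18.8, 16.5 and 16.5 CPM (0.22, 95% interval -0.05 to 0.50).

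With recombinant IL-10 before LPS, 3 of the 31 peaks were higher and 1 lower than with LPS alone, against 4.26% and 4.51% of all tested peaks. These are few calls beside that background, and peaks 9, 10 and 25 among them were also LPS DARs. The 3 higher peaks follow each other among the 31, at and upstream of Il19 and far upstream of Il10, although 5 peaks outside the windows, of which 0 were called, lie between peaks 9 and 10. Peak 10 held 5.54, 3.59 and 6.16 CPM with LPS + IL-10 and 3.26, 2.50 and 3.64 CPM with LPS (0.71 ± 0.22, adjusted p = 0.023). Peak 9 held 5.38, 2.38 and 4.92 CPM against 2.39, 3.20 and 1.85 CPM (0.77 ± 0.25, adjusted p = 0.030), and mouse 2 went the other way. Peak 8 at the Il19 start held 2.90, 1.33 and 1.33 CPM against 0.919, 0.499 and 0.956 CPM (1.23 ± 0.39, adjusted p = 0.027), which are 57, 23 and 29 counts against 20, 10 and 16. The groups overlapped in peaks 9 and 10 and not in peak 8.

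The lower peak was downstream of Il10. Peak 25 held 7.72, 7.30 and 7.03 CPM with LPS + IL-10 against 11, 10.3 and 10.6 CPM with LPS, without overlap (-0.53 ± 0.18, adjusted p = 0.039). The other 9 downstream peaks had log2 fold-changes of -0.56 to 0.25 and did not pass. Of these 4 calls, DESeq2 made that of peak 10 alone. Without replicate 1, 0 of the 4 were called and peak 28 was called lower instead, without replicate 2 peak 9 was the only call, and without replicate 3 peak 8 was. The 5 neutrophil marker peaks summed to 48.4 to 53.0 CPM with LPS + IL-10 and 35.8 to 40.5 CPM with LPS, and 1 of them was called higher. Their part in the 4 calls was not tested.

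**Figure D4:**
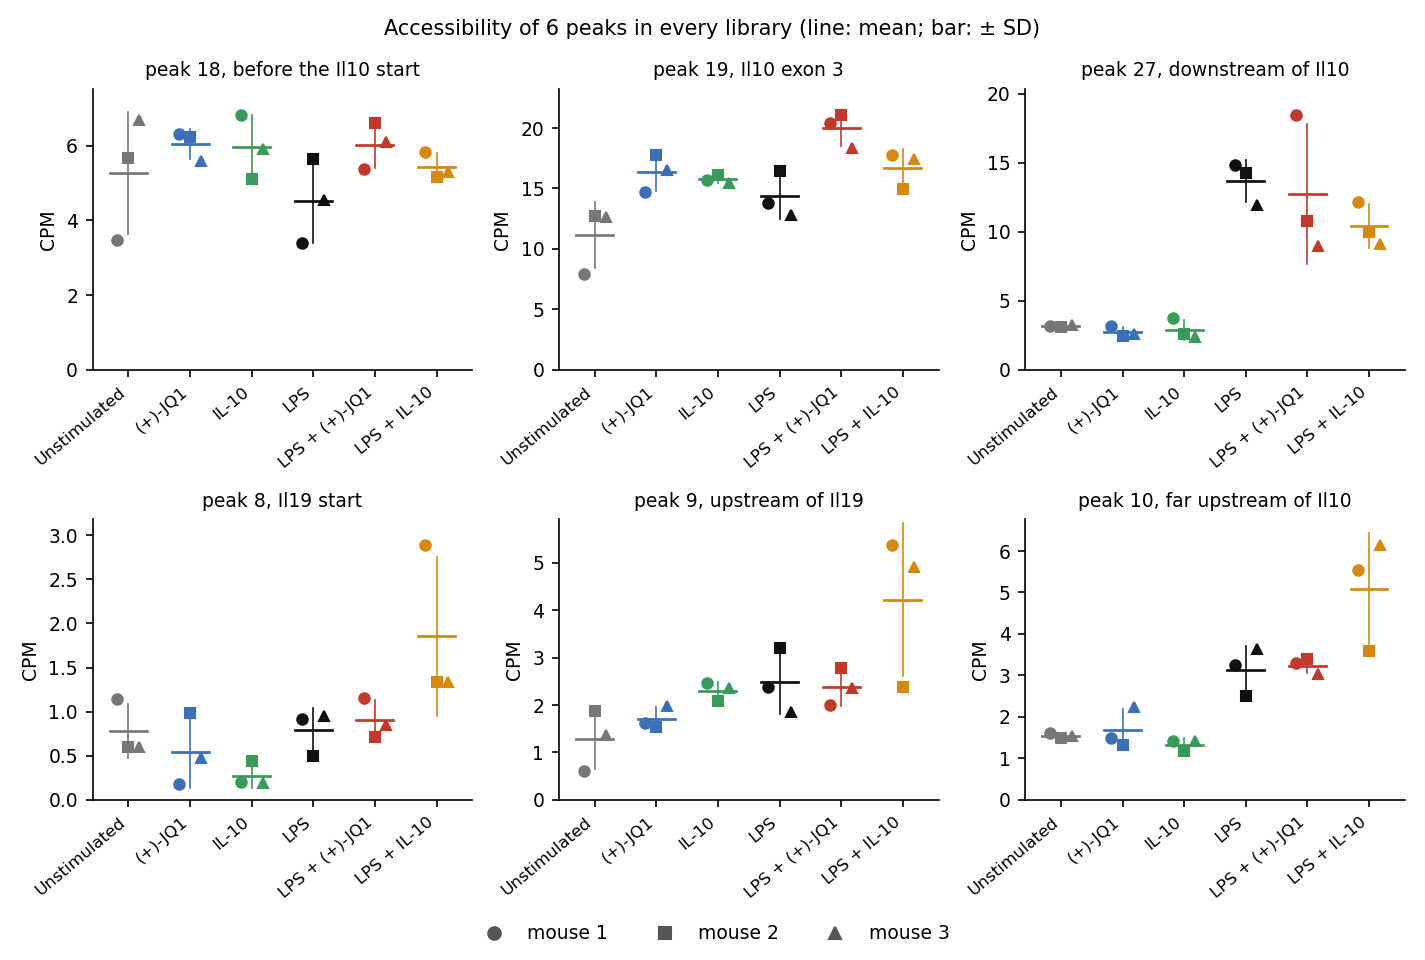
Accessibility (CPM) of 6 peaks in every library by condition, with the mean and SD of 3 mice per condition. Peak 27 separates libraries with LPS from those without, peak 18 does not, peak 19 is highest with LPS + (+)-JQ1, and peaks 8 to 10 are highest on average with LPS + IL-10.

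Set against each other under LPS, (+)-JQ1 and IL-10 differed in 3 of the 31 peaks. With LPS + (+)-JQ1, 1 peak was higher and 2 were lower than with LPS + IL-10, where 3.43% of all tested peaks were higher and 4.68% lower. Peak 28 was the higher one, with 11.8, 6.88 and 4.81 CPM against 5.99, 4.06 and 3.67 CPM (0.73 ± 0.21, adjusted p = 0.014), and the ranges overlapped. The lower ones were peaks 9 and 10. Peak 9 held 2.00, 2.78 and 2.37 CPM with LPS + (+)-JQ1 (-0.82 ± 0.25, adjusted p = 0.020), and peak 10 held 3.30, 3.38 and 3.02 CPM (-0.67 ± 0.22, adjusted p = 0.037). Both comparisons with LPS and this one share libraries. Without replicate 1, 0 of the 3 were called.

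In resting cells, (+)-JQ1 alone changed 3 of the 31 peaks. Against unstimulated cells, 2 peaks were higher and 1 lower, with a background of 7.85% higher and 3.15% lower. Peak 26 held 9.30, 12.4 and 9.98 CPM with (+)-JQ1 and 5.02, 6.81 and 6.96 CPM without (0.74 ± 0.16, adjusted p = 0.00032). Peak 19 held 14.7, 17.8 and 16.6 CPM against 7.96, 12.8 and 12.7 CPM (0.54 ± 0.15, adjusted p = 0.0051). Peak 15 (-8.43 kb from the Il10 start) fell from 1.61, 1.21 and 0.877 CPM to 0.477, 0.630 and 0.366 CPM (-1.33 ± 0.43, adjusted p = 0.024). These are 24, 22 and 16 counts without (+)-JQ1 and 8, 9 and 7 with it. In all 3 peaks the groups did not overlap, which is no separate support, since the same libraries gave the calls.

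These resting calls moved with the scaling. With total counts in place of TMM, 0 peaks were higher and 5 lower, and with loess offsets 0 higher and 3 lower, while the median of all tested peaks was -0.37 with total counts and -0.09 with TMM. With the replicate number as a block, the 3 calls remained and 2 lower ones (peaks 23 and 24) were added. DESeq2 called peaks 19 and 26 higher and did not call peak 15. Without replicate 2, 0 of the 31 peaks were called, and peak 26 was the only call without replicate 1. The 14 peaks at the starts of the macrophage markers summed to 145.3 to 200.2 CPM in unstimulated libraries, 233.0 to 242.3 with (+)-JQ1 and 228.5 to 242.8 with IL-10, and 4 of them were called higher in each of these 2 comparisons. What part this difference between libraries has in the peaks named here was not tested.

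IL-10 alone raised 1 of the 31 peaks and lowered 2, against 5.16% and 3.5% of all tested peaks. Peak 22 behind the last exon rose to 18.2, 16.1 and 17.1 CPM from 11.1, 10.6 and 12.4 CPM (0.59 ± 0.14, adjusted p = 0.0030). Peak 24 fell to 3.20, 3.45 and 2.73 CPM from 5.55, 4.95 and 4.93 CPM (-0.72 ± 0.20, adjusted p = 0.0088), and in both peaks the groups did not overlap. Peak 8 at the Il19 start fell to 0.197, 0.438 and 0.188 CPM from 1.14, 0.604 and 0.603 CPM (-1.47 ± 0.51, adjusted p = 0.044), which are 4, 9 and 4 counts against 17, 11 and 11. With DESeq2's size factors in edgeR 3 were higher and 2 lower, with total counts 0 higher and 4 lower, and with loess offsets 0 higher and 1 lower. With the replicate number as a block, peak 19 was called higher too. DESeq2 called peaks 19 and 22 higher and peak 24 lower, and did not call peak 8. Without replicate 2, 0 of the 31 peaks were called. The 5 peaks at the starts of the neutrophil markers summed to 51.2 to 56.3 CPM with IL-10 and 29.7 to 45.7 CPM in unstimulated libraries, and 2 of them were called higher. Their part in these calls was not tested.

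Interaction terms asked whether a treatment changed the effect of LPS. For (+)-JQ1, 0 of the 31 peaks had an interaction (background 0.649% positive and 3.19% negative), with 5 at an unadjusted p under 0.05 and 0 by DESeq2. For IL-10, 1 peak had a positive interaction and 0 a negative one, against 2.01% and 5.90% of all tested peaks. This was peak 8 at the Il19 start, with 2.70 ± 0.64 (adjusted p = 0.0025). There the IL-10 libraries held fewer counts than the untreated ones in resting cells and more under LPS. Without replicate 1 the value was 1.82 with an adjusted p of 0.208, and DESeq2 gave 2.71 without an adjusted p. DESeq2 made 1 call for this interaction, in the other direction and at another peak (peak 22, -0.55, adjusted p = 0.0468), where edgeR gave -0.53 with an adjusted p of 0.088.

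The genes whose windows followed Il10 most closely were found by the Pearson correlation of log2 summed CPM over the 18 libraries. They were sought among 18942 protein-coding genes whose own windows hold none of the 31 peaks. The neighbours Mapkapk2 and Faim3, whose windows hold some of these peaks, were therefore not ranked. They were Rbpjl (0.987), Matn4 (0.985), Sik3 (0.983), Opa3 (0.983) and Pdss1 (0.980), and 376 genes were above 0.9. Rbpjl and Matn4 overlap on chromosome 2 and so share peaks. The libraries form 2 groups here, and within the 9 libraries with LPS these 5 values were 0.742 to 0.904 and within the 9 without LPS 0.486 to 0.801. For Il19 the closest genes were AI481877 (0.939), Sla (0.927), Cox4i2 (0.925), Il1r1 (0.908) and Cd48 (0.907), and for Il24 Pik3r6 (0.907), Tm9sf3 (0.902), Casp12 (0.902), Mybpc3 (0.897) and C1s (0.890). Within the 9 libraries with LPS and the 9 without, the values of the Il19 genes were 0.758 to 0.886 and 0.854 to 0.981. Those of the Il24 genes were lower, at 0.176 to 0.525 with LPS and 0.616 to 0.817 without. Il20 shares its peaks with Il19 and had AI481877, Cox4i2, Cd48, Mefv and Il1r1 as its closest genes (0.896 to 0.919 over all libraries, 0.704 to 0.889 with LPS and 0.798 to 0.937 without). All points share their library, its depth and its scaling factor.

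The receptors and signal carriers of this cytokine family were read at their own starts. These lists were chosen with earlier results known. Of 12 such genes, 10 had a start peak, with 33 peaks in all. LPS raised 12 of these peaks at 6 genes and lowered 1 at Jak1, where 11.7% of all tested peaks rose and 10.2% fell. Among the raised genes, the start peak with the smallest adjusted p rose by 1.99 ± 0.14 at Socs3, the feedback inhibitor of STAT3 signalling. The same choice gave 1.82 ± 0.19 at Il20rb, the receptor chain shared by IL-19, IL-20 and IL-24, and 0.58 ± 0.14 at Il10rb. Summed over its 6 start peaks, Il20rb went from 13.32 ± 2.069 CPM in unstimulated cells to 26.4 ± 2.203 CPM with LPS (SD). Over 2 start peaks each, Socs3 went from 19.99 ± 2.374 to 75.63 ± 6.604 CPM and Il10rb from 34.8 ± 6.99 to 48.77 ± 4.388 CPM. With (+)-JQ1 before LPS, 0 of the 33 were higher and 7, at 3 genes, lower than with LPS alone (1.74% and 3.49% of all tested peaks). Among the lower ones were peaks at Il20rb (-0.99 ± 0.17) and at Stat3 (-0.76 ± 0.14), the factor that IL-10 activates. The Il20rb sum was 14.2 ± 2.94 CPM with LPS + (+)-JQ1. That of the 9 Stat3 start peaks was 84.4 ± 7.15 CPM against 105.9 ± 8.71 with LPS. With IL-10 before LPS, 2 were higher, at Il10rb (0.96 ± 0.14) and Socs3 (0.60 ± 0.17), and 1 was lower, shares near the 4.26% and 4.51% of all tested peaks. Over its 2 start peaks, the Socs3 sum was 67.8 ± 7.05 CPM with LPS + IL-10 against 75.6 ± 6.60 with LPS, so it did not rise. The Il10rb sum was 59.1 ± 4.48 CPM against 48.8 ± 4.39. The other ligands of the family, Il22 and the genes of interferon lambda (Il28a and Il28b), had no start peak.

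Transcription factors known to act at Il10, a list that also holds Stat3, had 31 start peaks at 13 of 13 genes. LPS raised 14 of them, at 5 of the 13 genes, and lowered 0 (11.7% and 10.2% of all tested peaks). Nfkb1 and Stat3 hold 9 of the 31 start peaks each. At the start peak with the smallest adjusted p, the rise was 1.72 ± 0.20 for Stat3, 1.52 ± 0.17 for Nfkb1 and 0.54 ± 0.14 for Cebpb. Summed over all start peaks, Stat3 went from 62.2 ± 3.00 to 105.9 ± 8.71 CPM and Nfkb1 from 86.4 ± 15.4 to 159.1 ± 7.81 CPM (SD). Against LPS alone, LPS + (+)-JQ1 gave 1 higher peak, at Prdm1 (0.51 ± 0.14), and 2 lower, beside 1.74% and 3.49% of all tested peaks. LPS + IL-10 gave 0 higher and 8 lower, beside 4.26% and 4.51%, the 8 lying at 2 genes, Nfkb1 (-1.11 ± 0.15 at the peak with the smallest adjusted p) and Creb1 (-0.54 ± 0.14). With (+)-JQ1 alone, 14 of the 31 were higher at all 13 genes, against 7.85% of all tested peaks, beside the macrophage marker starts described above.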

How the data were processed

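ATAC-seq was measured in 18 libraries from BMDMs of 3 Il10-/- mice, in 6 conditions of 3 libraries. Per the methods and the labels, the authors aligned reads to mm9 with bowtie2 in PEPATAC 0.9.0, called peaks with MACS2 and joined them into a union set, for which they deposited raw read counts per peak. The counting tool is not given in the sources used here. Their promoter and distal tables, classed with ChIPseeker (1000 bp before to 100 bp after a start), held the same counts for 194284 of 194284 peaks. In the union table, 6 columns match no sample and were not used.

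The 31 peaks, the gene lists and the tests were chosen with earlier results of these data known. The deposited counts were filtered with filterByExpr, scaled by TMM and fitted for all 18 libraries in 1 edgeR 4.0.16 quasi-likelihood model (R 4.3.3) with a term per condition and no block. P-values were adjusted by Benjamini-Hochberg over 194230 peaks, and a DAR had an adjusted p under 0.05 and a |log2 fold-change| above 0.5. Intervals are 95% intervals from the fitted SE with 12 residual degrees of freedom before moderation. With 3 against 3 libraries, an exact permutation test of 1 peak cannot go below p = 0.1, so none is given. Where the groups of a called peak are said not to overlap, this describes the libraries that gave the call. The share of all tested peaks without overlap was not counted. Alternatives were DESeq2 1.42.0, its size factors in edgeR, total counts, loess offsets (limma 3.58.1, span 0.3), no filter, at least 10 counts in every library, the replicate number as a block, a term for the sequencing lane, a fit of the compared groups alone, and each replicate left out. In simulated counts for LPS against unstimulated, 166 of 200 peaks given a true log2 fold-change of 1.5 were recovered among 193734, with 9 false calls. The 200 were drawn only from peaks above a minimum expected count, and all peaks had the same fixed dispersion. The recovery therefore does not cover the peaks of the cluster with low counts.

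Same-numbered libraries were taken to come from the same mouse, because the series describes its samples as biologically matched. The sample titles give a replicate number only, and mouse numbers in the text are these replicate numbers. The mean correlation of their deviations from the condition means was 0.0057 over 45 pairs, against -0.0029 over 90 other pairs, so the counts do not show this pairing. Library totals of 12020526 to 25908198 counts limit the low peaks most. Values in every library are given for the peaks at starts of Il10 and Il19, the 12 DARs with the smallest adjusted p after LPS, up to 4 DARs of each other comparison, and DARs of an interaction. Peaks 1, 2, 4, 12, 17, 20, 21 and 23 fall outside this rule and were named after their values were seen. Genes were read in the annotation GENCODE M1, and likeness between genes used log2 of summed CPM with a pseudocount of 0.1. Some items are not reported here.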

Additional observations from a re-analysis of the deposited data

Results flagged for a closer look

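Peak 8 at the Il19 start (chr1:132836602-132837389) showed an effect of LPS that differed between cells with and without IL-10, by the interaction term (2.70 ± 0.64, adjusted p = 0.0025, edgeR's quasi-likelihood test). It held 17, 11 and 11 counts in unstimulated libraries and 4, 9 and 4 counts with IL-10. With LPS it held 20, 10 and 16 counts, and with LPS + IL-10 57, 23 and 29 counts. The counts are low for this series, where the peak ranked 30th of the 31 by CPM per kb. Without replicate 1 the interaction was 1.82 with an adjusted p of 0.208.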

How the results depend on the processing

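After LPS, 11 to 17 of the 31 peaks were called higher and 0 lower under the 12 alternatives (15 in the report), with 13 to 17 when a replicate was left out. LPS + (+)-JQ1 against LPS had 0 calls under all 12. Of the 29 calls in the 8 comparisons, 10 were made under all 12 alternatives, all 10 of them after LPS, and 0 changed direction. Total-count scaling moved the median of all tested peaks after LPS from -0.03 to -0.26, and gave 5 calls for (+)-JQ1 against unstimulated (3 in the report), 2 for the (+)-JQ1 interaction (0) and 3 for the IL-10 interaction (1). A minimum of 10 counts in every library, which tested 21 of the 31 peaks and not peak 8, gave 1 call for IL-10 against unstimulated (3), 2 for LPS + IL-10 against LPS (4), 2 for the (+)-JQ1 interaction and 0 for the IL-10 interaction. IL-10 against unstimulated had 5 calls with DESeq2's size factors and 1 with loess offsets, LPS + IL-10 against LPS had 1 by DESeq2, and (+)-JQ1 against unstimulated had 5 with lane as a covariate. Leaving out a replicate gave 0 to 2 calls for (+)-JQ1 against unstimulated, 0 to 4 for IL-10 against unstimulated, 1 in each case for LPS + IL-10 against LPS, 0 to 2 for LPS + (+)-JQ1 against LPS + IL-10 (3) and 0 to 1 for the IL-10 interaction. Fewer libraries or fewer peaks entered these fits, and for the other settings the cause was not tested.

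With the replicate number as a block, the pairing by mouse gave 5 calls for (+)-JQ1 against unstimulated, 4 for IL-10 against unstimulated, 15 for LPS, 4 for LPS + IL-10 against LPS, 3 for LPS + (+)-JQ1 against LPS + IL-10, and 1 and 0 for the interactions with IL-10 and (+)-JQ1. It ended none of the 29 calls. At low depth, peak 8 and the other 9 peaks with under 10 counts in some library could not show small differences. With 1 as the pseudocount, 5, 4, 5 and 4 of the 5 genes closest to Il10, Il19, Il20 and Il24 were the same.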
